A study of Homo sapiens with 6 samples.

Results

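Translation factors are the proteins that load an mRNA and an initiator tRNA onto the ribosome and then carry the ribosome along the coding sequence. The 42 genes described here encode initiation factors, elongation factors and the poly(A)-binding protein PABPC1. They were taken from the table by gene symbol alone, and all 42 were found among its 58174 genes and passed the filter on low counts. By a rule that used no measured value, 20 of them were set apart as 5'TOP-type genes, namely the elongation factor genes EEF1A1, EEF1B2, EEF1D, EEF1G and EEF2, the 13 EIF3 subunit genes, EIF4B and PABPC1. The other 22 are referred to as the other factors. Members and lists were nonetheless chosen with earlier results of these data known.

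The cells were PC9, an established line of human lung adenocarcinoma. The knockdown group (3 libraries) received an antagomir directed at tsRNA-5001a, and the control group (3 libraries) received a negative control antagomir. Antagomirs are modified antisense oligonucleotides that bind a small RNA, and a tsRNA is a fragment of a transfer RNA. No untreated cells, dose or time of treatment are given in the labels, and 1 cell line was used.

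In eukaryotic initiation, eIF2 carries the initiator tRNA as a ternary complex with GTP, and eIF2B recharges eIF2 with GTP. The eIF4 proteins and PABPC1 bind the cap and tail of the mRNA, and the multisubunit complex eIF3 joins the mRNA to the small ribosomal subunit. EIF5, EIF5B and EIF6 act at or around subunit joining, and eEF1 and eEF2 drive elongation. Many mRNAs for ribosomal proteins and elongation factors begin with a C followed by a tract of pyrimidines, called the 5' terminal oligopyrimidine or 5'TOP motif, through which their translation and stability respond to the growth-regulating kinase mTOR and the RNA-binding protein LARP1.

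The start sites of the members show how far the sequence follows that grouping. RefSeq start sites on GRCh38.p14 were found for 34 members, 13 of them 5'TOP-type. Each window below runs 5' to 3' on the gene's strand with 15 bases before the start and 15 bases from the start on, and capitals mark the pyrimidine run that spans the start base, from its first C on, where the start base is a C followed by at least 4 letters, each C or T. Other pyrimidine runs in a window are left in lower case. The first 5 windows are of elongation factor and eIF3 genes with such a run at the start base itself.
EEF1A1, chr6:73521018-73521047, minus strand: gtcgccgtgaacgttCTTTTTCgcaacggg
EEF1B2, chr2:206159880-206159909, plus strand: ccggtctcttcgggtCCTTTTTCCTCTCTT
EEF2, chr19:3985449-3985478, minus strand: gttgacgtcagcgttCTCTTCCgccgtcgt
EIF3F, chr11:7987322-7987351, plus strand: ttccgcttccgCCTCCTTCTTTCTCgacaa
EIF3K, chr19:38619173-38619202, plus strand: ttccgtttccaccaCCTCTTCCTgttcccg
The next pair comes from the other factors and also holds the run at the start base.
EIF2S3, chrX:24054941-24054970, plus strand: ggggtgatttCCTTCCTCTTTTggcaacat
EIF4A2, chr3:186783562-186783591, plus strand: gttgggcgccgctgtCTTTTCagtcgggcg
The last windows are of 2 5'TOP-type genes and 1 other factor in which these letters do not stand at the annotated start.
EEF1G, chr11:62573877-62573906, minus strand: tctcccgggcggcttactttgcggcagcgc
EIF3I, chr1:32222392-32222421, plus strand: accttttccggtcttactcacgttgcggcc
EIF4E, chr4:98929119-98929148, minus strand: ccttctggagcggttgtgcgatcagatcga

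The run at the exact start base, looked for on the gene's strand, was present in 8 of the 13 5'TOP-type members searched (61.5%). These were EEF1A1, EEF1B2, EEF2, EIF3D, EIF3F, EIF3K, EIF3M and EIF4B. Among the other factors the run was present in 2 of 21 (9.52%). The share was 73.0% of the 63 cytosolic ribosomal protein genes with an entry and 6.91% of the 11447 genes tested that had one. When a run within 10 bases of the start was accepted, the shares were 76.9% for the 5'TOP-type members, 47.6% for the other factors and 41.7% for the genes tested. Chromosome 8 was left out of the shares of the members but not of the ribosomal protein genes or the genes tested. A match describes letters in the window and is no evidence of a working motif. An annotated start can also differ from the start used in PC9 cells, and EEF1B2 has another annotated start without the run.

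Library totals lay between 32342017 and 40066223 gene counts. Expression was compared with edgeR's quasi-likelihood test on the deposited counts, with p-values adjusted over the 19040 genes tested by the Benjamini-Hochberg method, and levels are given as CPM, counts scaled for the size of each library. The test called 223 genes (1.17%), of which 209 were higher (1.1%) and 14 lower (0.0735%) after knockdown. Knockdown library 2 stood apart from libraries 1 and 3 for members of low and of high GC content, and values with and without it are given after the results by role. The tsRNA is not measured in these counts, so its knockdown was not checked. The labels do not state whether a group's 3 libraries were grown as separate cultures, and p-values then reflect library-to-library spread alone, possibly technical. Epithelial markers summed to 10361 to 13143 CPM in knockdown and 11639 to 12736 CPM in control libraries (8 of 9 tested), with the lung adenocarcinoma marker NAPSA between 1.36 and 2.59 CPM and SFTPB too low to test. NKX2-1 was at 0.564 to 0.912 CPM after knockdown and at 0 to 0.372 CPM in the control. Markers of other cell types summed to 63.5 to 77.8 against 56.1 to 68.4 CPM for immune cells, mostly CD68, 32.9 to 43.1 against 19.3 to 36.5 for endothelium, 38.6 to 54.2 against 37.4 to 44.9 for fibroblasts, where LUM was at 0 counts, and 8.50 to 16.5 against 9.72 to 59.7 for neural cells. Of 9 tested markers of other cell types, CD14, PECAM1, VWF and DCN were above the control in all 3 knockdown libraries (13.4% of all genes were), and none of the 9 passed edgeR's test. The part of these markers in the results was not tested.

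None of the 42 translation factor genes passed edgeR's test at an adjusted p of 0.05, and the lowest adjusted p was 0.0544, for EEF1D. At an unadjusted p under 0.05, 12 members were lower and 1 was higher after knockdown, where 6.71% of all genes tested were lower and 9.77% higher. Of the 577 genes above 8 log2 CPM, 193 were lower and 5 higher at that p by edgeR. DESeq2 called 3 members lower (EEF1D at an adjusted p of 0.00106, EEF1B2 at 0.00647 and EIF3L at 0.0251) and limma-voom called 0, where DESeq2 called 3.68% of all genes tested (1.14% lower) and limma-voom 1.16%. In RNA of whole cultures, a lower level in every cell and a smaller share of cells with a high level cannot be told apart.

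The 5'TOP-type members had lower estimates than the other factors. Of the 20, 18 had a lower estimate after knockdown, and their median log2 fold change was -0.31, over a range of -0.80 to 0.06. Of the 22 other factors, 13 had a lower estimate, with a median of -0.04 and a range of -0.43 to 0.50. Over all 19040 genes tested 44.1% had a lower estimate and the median was 0.05. At an unadjusted p under 0.05, 10 of 20 5'TOP-type members and 2 of 22 other factors were lower. All 3 knockdown libraries were below all 3 control libraries for 11 of 20 5'TOP-type members and 3 of 22 other factors, against 10.8% of all genes tested. All 3 were above for 0 and 2 members, against 13.4% of all genes. Among the 577 genes above 8 log2 CPM, 210 were lower and 9 higher without overlap. Of the members above 8 log2 CPM, 8 of 13 5'TOP-type and 0 of 7 other factors were lower without overlap. These counts and medians describe the lists and were not tested, and the genes of a list are not independent of each other.

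**Figure D1:**
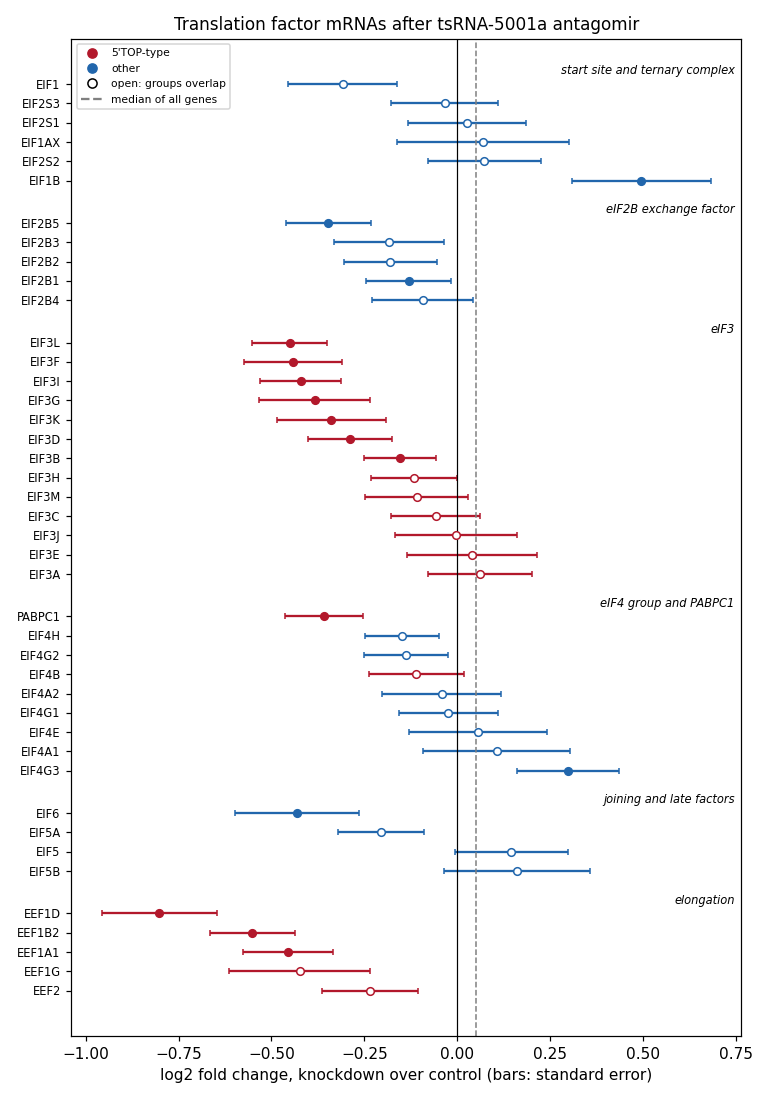
Log2 fold change of knockdown over control for each of the 42 translation factor genes, by role, from edgeR, with bars for the standard error (3 libraries per group). Elongation factor genes lie between -0.80 and -0.23, while the 22 factors outside the 5'TOP-type group lie on both sides of 0, from -0.43 (EIF6) to 0.50 (EIF1B).

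The elongation factor genes were the lowest role group, with all 5 estimates lower after knockdown and a median log2 fold change of -0.46. eEF1A delivers aminoacyl-tRNA to the ribosome and is encoded mainly by EEF1A1 (ENSG00000156508, chr6:73515750-73523797, minus strand). EEF1A1 stood at 11255, 11868 and 11929 CPM in control libraries 1 to 3 and at 9349, 9255 and 6960.5 CPM in knockdown libraries 1 to 3. The groups did not overlap, and knockdown library 3 was lowest. The log2 fold change was -0.46 (SE 0.12, adjusted p 0.136 by edgeR).

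EEF1B2, EEF1D and EEF1G encode the subunits of eEF1B, which exchanges GDP for GTP on eEF1A, EEF1B2 and EEF1D carrying exchange activity and EEF1G serving as a scaffold. EEF1D had 330.1, 442 and 386 CPM in the control and 245, 184 and 235 CPM after knockdown, a log2 fold change of -0.80 (SE 0.16, adjusted p 0.0544 by edgeR). EEF1B2 had 278, 340.3 and 312 CPM in the control and 208, 217 and 210.3 CPM after knockdown, a log2 fold change of -0.55 (SE 0.11, adjusted p 0.0704 by edgeR). In this exchange factor pair every knockdown library lay below every control library, and the EEF1B2 knockdown libraries spread by only 4.61 CPM (SD, n = 3). EEF1G had 1909.7, 2812 and 2843 CPM in the control and 1926, 1493 and 2218 CPM after knockdown. Control library 1 was as low as the knockdown libraries for EEF1G, so the groups overlapped, and the log2 fold change of -0.42 had an edgeR adjusted p of 0.31.

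eEF2 moves the ribosome on by a codon after each peptide bond. EEF2 had 3931, 3745 and 4076 CPM in the control and 3846, 2721 and 3419.9 CPM after knockdown. Knockdown library 1 lay inside the control range and library 2 far below it, and the log2 fold change of -0.23 (SE 0.13) had an edgeR adjusted p of 0.408. Within the elongation group EEF2 had the estimate closest to 0 and EEF1D the lowest.

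**Figure D2:**
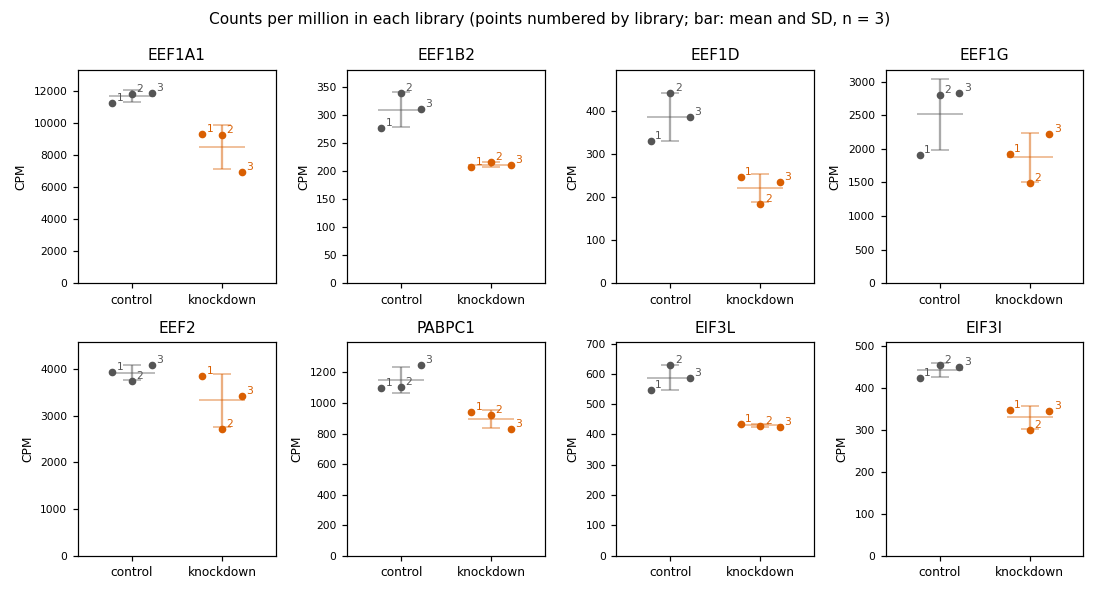
CPM of the 5 elongation factor genes, PABPC1, EIF3L and EIF3I in each of the 6 libraries, on a linear scale from 0. Bars give the mean and SD of each group (n = 3). The knockdown libraries lie below the control libraries for EEF1A1, EEF1B2, EEF1D, PABPC1, EIF3L and EIF3I, while the groups overlap for EEF1G and EEF2.

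eIF3 is the scaffold of the 43S preinitiation complex. Of its 13 subunit genes 11 had a lower estimate. The median log2 fold change was -0.15, over a range of -0.45 (EIF3L) to 0.06 (EIF3A), and 7 of 13 had groups that did not overlap, all lower. EIF3L, whose protein binds EIF3K at the edge of the complex, had 548, 628 and 587 CPM in the control and 436, 428 and 425 CPM after knockdown. Its log2 fold change was -0.45 (SE 0.10, adjusted p 0.0911 by edgeR). EIF3F, which encodes a subunit with an MPN domain, had 244, 213 and 202 CPM in the control and 177, 142 and 166 CPM after knockdown, a log2 fold change of -0.44 (SE 0.13, adjusted p 0.17 by edgeR). The 3 knockdown libraries had an SD of only 5.76 CPM for EIF3L, while for EIF3F knockdown library 2 was lowest.

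The b, g and i subunits form a module of eIF3 that is mobile on the ribosome, and the groups did not overlap for any of the 3 genes. EIF3I had 424, 454 and 449 CPM in the control and 347, 299 and 345 CPM after knockdown, a log2 fold change of -0.42 (SE 0.11, adjusted p 0.13 by edgeR). EIF3G had 211, 227 and 237 CPM in the control and 190.2, 137 and 189.8 CPM after knockdown, a log2 fold change of -0.38 (adjusted p 0.26 by edgeR). EIF3B, the platform of the module, was closer to its control level, with a log2 fold change of -0.15 (adjusted p 0.468 by edgeR). The module median was -0.38, against -0.11 for the 8 subunits of the octamer core (a, c, e, f, h, k, l and m). Against their control means, EIF3B, EIF3G and EIF3I were at log2 -0.15, -0.24 and -0.35 in knockdown library 1. In library 2 they were at -0.18, -0.71 and -0.57, and in library 3 at -0.14, -0.25 and -0.36. In library 1 the core genes lay on both sides of the module's values, from -0.43 (EIF3L) to 0.06 (EIF3C). The difference between module and core was not tested.

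EIF3D, whose protein can bind the mRNA cap, had 373, 404 and 381 CPM in the control and 334, 282 and 333 CPM after knockdown, a log2 fold change of -0.29 (adjusted p 0.263 by edgeR). EIF3K also had groups that did not overlap, with a log2 fold change of -0.34 (adjusted p 0.298 by edgeR). The other 6 subunit genes had overlapping groups and log2 fold changes between -0.12 and 0.06. EIF3A, the largest scaffold subunit, was at 239.8, 189.9 and 234 CPM in the control and at 204, 258 and 231 CPM after knockdown. EIF3E, a core subunit, was at 326, 344 and 350.2 CPM in the control and at 269.6, 445 and 334 CPM after knockdown, where library 2 was the highest of all 6.

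The eIF4 group and PABPC1 showed 6 of 9 lower estimates and a median of -0.04. PABPC1, the cytoplasmic poly(A)-binding protein that bridges the tail to eIF4G, had 1096, 1102 and 1246 CPM in the control and 939, 920.0 and 826 CPM after knockdown. The groups did not overlap, and the log2 fold change of -0.36 (SE 0.11) had an edgeR adjusted p of 0.165. EIF4B, which stimulates the helicase eIF4A and is the other 5'TOP-type gene of the group, had 643, 616 and 679 CPM in the control and 532, 700.0 and 564 CPM after knockdown. Its knockdown libraries straddled the control range, with a log2 fold change of -0.11.

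Without PABPC1 and EIF4B the 7 remaining eIF4 genes had a median log2 fold change of -0.02. EIF4G2 and EIF4H, a scaffold relative that does not bind the cap protein and a helicase cofactor, had log2 fold changes of -0.14 and -0.15 with overlapping groups. The helicase genes EIF4A1 and EIF4A2 had log2 fold changes of 0.11 and -0.04 and overlapping groups. EIF4A1 was at 263, 317 and 200.2 CPM in the control and at 336, 228 and 276 CPM after knockdown, and EIF4A2 was at 263, 281 and 263 CPM in the control and at 221, 329.7 and 234 CPM after knockdown. Knockdown library 2 was the lowest of its group for EIF4A1 and the highest for EIF4A2.

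For the scaffold genes, EIF4G3 had 83.9, 66.4 and 82.5 CPM in the control and 89.4, 104 and 92.4 CPM after knockdown, all above the control. Its log2 fold change of 0.30 (SE 0.14) had an edgeR adjusted p of 0.323. Its paralog EIF4G1 was at 898, 704 and 799 CPM in the control and 899.6, 726 and 736 CPM after knockdown, with a log2 fold change of -0.02. EIF4E, the cap-binding protein, stood at 34.2 ± 2.41 CPM (SD, n = 3) in the control and 35.6 ± 8.72 CPM after knockdown, a log2 fold change of 0.05. The gene for the cap-binding subunit thus differed by less than the spread between its libraries.

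Among the genes of start site selection and the ternary complex, 2 of 6 estimates were lower and the median was 0.05. EIF1 and EIF1B encode closely similar proteins that keep the scanning ribosome open until it meets a start codon, and their estimates had opposite signs. EIF1 had 106, 143 and 128 CPM in the control and 92.7, 112 and 99.6 CPM after knockdown, overlapping, with a log2 fold change of -0.31 (SE 0.15, adjusted p 0.334 by edgeR). EIF1B had 14.4, 20.1 and 19.5 CPM in the control and 21.5, 29.4 and 25.2 CPM after knockdown, all above the control, with a log2 fold change of 0.50 (SE 0.19, adjusted p 0.252 by edgeR). The difference between the pair was not tested, and EIF1B overlaps the antisense gene EIF1B-AS1, from which its reads cannot be told apart where counting does not use strand.

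The 3 subunits of eIF2, EIF2S1, EIF2S2 and EIF2S3, had log2 fold changes between -0.03 and 0.07 with overlapping groups. EIF2S1, which carries the serine that stress kinases phosphorylate, was at 101 ± 2.70 CPM (SD, n = 3) in the control and 103 ± 21.9 CPM after knockdown. The spread among knockdown libraries exceeded the difference between groups.

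All 5 subunit genes of eIF2B, the exchange factor that phosphorylated eIF2 inhibits, had lower estimates, from -0.35 to -0.09 with a median of -0.18. EIF2B5, the catalytic epsilon subunit, had 64.5, 69.3 and 63.4 CPM in the control and 52.2, 50.9 and 52.0 CPM after knockdown. Its groups did not overlap, and the log2 fold change of -0.35 (SE 0.11) had an edgeR adjusted p of 0.2. EIF2B1, a regulatory subunit, had 55.2, 58.2 and 56.1 CPM in the control and 48.9, 53.7 and 52.2 CPM after knockdown, also without overlap, with a log2 fold change of -0.13 (adjusted p 0.61 by edgeR). EIF2B4, closest to 0, was at 29.7, 33.4 and 33.6 CPM in the control and at 32.5, 27.2 and 30.9 CPM after knockdown. The eIF2B genes are not 5'TOP-type by the rule, and their median of -0.18 stood beside 0.03 for the subunits of eIF2, their substrate. Against their control means, EIF2S1, EIF2S2 and EIF2S3 were at log2 0.34, 0.31 and 0.25 in knockdown library 2. In knockdown library 1 they were at -0.22, -0.22 and -0.24. Without knockdown library 2 their log2 fold changes were -0.17, -0.07 and -0.21. On TPM the estimates of EIF2B1, EIF2B2, EIF2B3 and EIF2B4 turned higher. The comparison was not tested.

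Of the 4 genes that act at subunit joining or later, EIF6 and EIF5A had lower estimates and EIF5 and EIF5B higher ones. EIF6, which keeps the large subunit from joining early, had 179.5, 234 and 196 CPM in the control and 171, 119.7 and 162 CPM after knockdown. The groups did not overlap, and the log2 fold change of -0.43 (SE 0.17) had an edgeR adjusted p of 0.26. EIF5B, the GTPase of subunit joining, was at 75.2, 70.4 and 82.9 CPM in the control and at 60.1, 103 and 92.2 CPM after knockdown, a log2 fold change of 0.16 (adjusted p 0.723 by edgeR). EIF5A, which relieves ribosomes stalled at prolines, had a log2 fold change of -0.20 and overlapping groups.

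**Figure D3:**
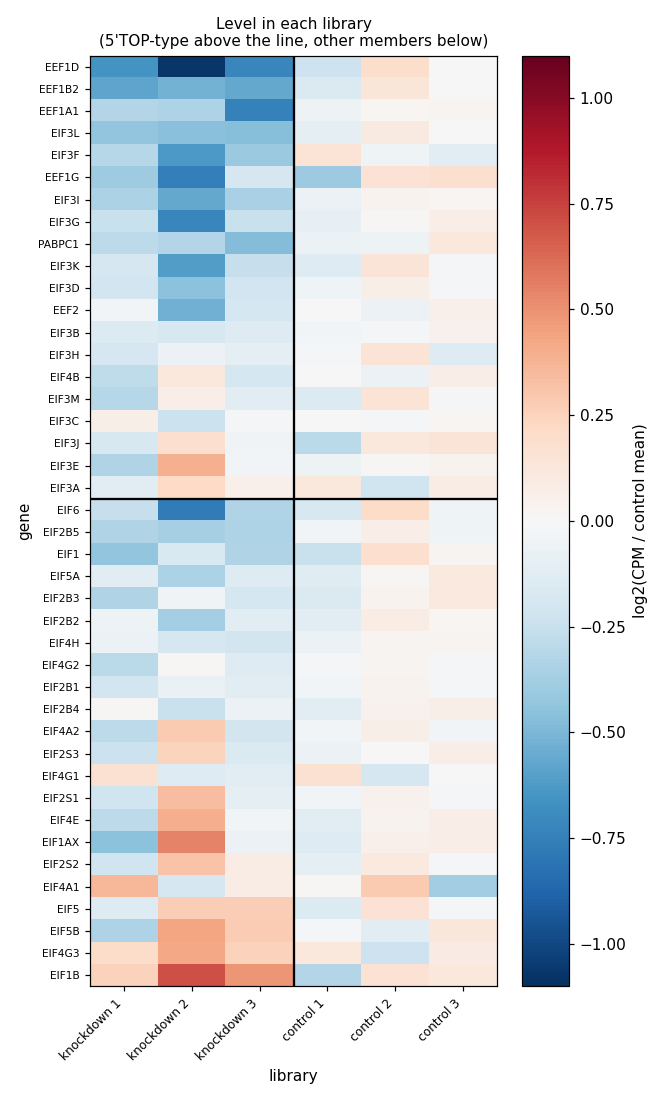
Log2 CPM of each member in each of the 6 libraries relative to its control mean, with 5'TOP-type members above a line and the other factors below it. The 3 knockdown libraries lie below 0 for EEF1A1, EEF1B2, EEF1D, EIF3L, EIF3I and PABPC1, and knockdown library 2 stands apart from libraries 1 and 3 in both directions.

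Knockdown library 2 lay at an edge of its group for most members, being the highest of the 3 for 20, the lowest for 17 and between the other two for 5. It was the highest of all 6 libraries for 13 members, 4 of them 5'TOP-type, and the lowest of all 6 for 15 members, 10 of them 5'TOP-type. GC content was taken from the longest annotated transcript of each gene, which need not be the one expressed. The members for which library 2 was highest in its group had a median GC content of 41.6% (range 35.1% to 48.8%). Those for which library 2 was lowest had 52.8% (range 40.6% to 60.6%). The log2 deviation of library 2 from knockdown libraries 1 and 3 was 0.79 for EIF1AX, 0.56 for EIF3E and 0.55 for EIF4E. It was -0.48 for EIF6, -0.47 for EEF1G and -0.47 for EIF3G. Across the 42 genes, which share the libraries and are not independent replicates, Spearman's rho between this deviation and GC content was -0.81.

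**Figure D4:**
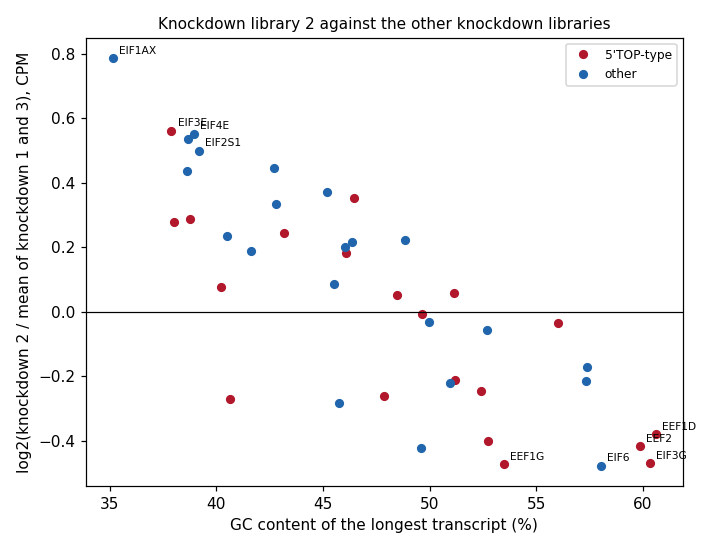
Log2 deviation of knockdown library 2 from the mean of knockdown libraries 1 and 3 for each of the 42 members, against the GC content of its longest annotated transcript in percent. Members of low GC content such as EIF1AX lie above 0 and members of high GC content such as EIF6 and EEF1G lie below 0.

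The distance between the 5'TOP-type and the other factors also differed between the knockdown libraries. Measured against the control mean, the 5'TOP-type median was -0.29, -0.40 and -0.20 in knockdown libraries 1 to 3, and the median of the other factors was -0.22, -0.01 and -0.12. The gap between the lists was therefore -0.07 in library 1, -0.38 in library 2 and -0.09 in library 3, while in the control libraries it lay between -0.02 and 0.03. The 5'TOP-type median was thus below 0 in each knockdown library, and its gap from that of the other factors was widest in library 2. Single 5'TOP-type members went above their control mean, among them EIF3E by 0.39 and EIF3A by 0.22 in library 2.

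Without knockdown library 2 the 5'TOP-type median was -0.24 and that of the other factors -0.16, a gap of -0.08 in place of -0.28. The 2 remaining knockdown libraries lay below all control libraries for 12 of 20 5'TOP-type members (60.0%) and 9 of 22 other factors (40.9%), where 17.4% of all genes did. The rank relation of log2 fold change to GC content across the 42 genes went from -0.60 to -0.18 without that library, and was -0.33 with GC and length trends removed from all libraries. In that last setting, chosen after the data were seen, all 20 5'TOP-type members and 18 of the 22 other factors had lower estimates, with medians of -0.29 and -0.15, and edgeR called 5 members, EEF1B2 (adjusted p 0.0144), EIF3L (0.0236), EEF1D (0.0242), EIF3I (0.0366) and EIF2B5 (0.0477), all lower. That setting called 3.4% of all genes tested, 1.36% lower.

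For the elongation factors the median against the control mean was -0.39, -0.53 and -0.56 in knockdown libraries 1 to 3 and between -0.16 and 0.14 in the control libraries. Leaving out any 1 library kept their median log2 fold change between -0.59 and -0.44, while removing the abundance trend brought it to -0.14 with 4 of 5 lower. EEF2 by itself was at -0.03, -0.53 and -0.20 against its control mean in knockdown libraries 1 to 3, lowest in library 2.

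Members that carry the pyrimidine run at the start base had lower estimates in 10 of 10 cases, at a median log2 fold change of -0.26 over a range of -0.55 to -0.03. Of the 24 members searched that had no such run, 16 had a lower estimate and the median was -0.11. The search left out the 5'TOP-type genes EEF1D (-0.80), EIF3L (-0.45), EIF3G (-0.38), PABPC1 (-0.36), EIF3H (-0.12), EIF3E (0.04) and EIF3A (0.06). Of these, EEF1D, PABPC1, EIF3H and EIF3E lie on chromosome 8, which was left out of the search. On which side of the split the genes left out would fall is not known. Among 5'TOP-type members the median was -0.31 for the 8 with the run and -0.15 for the 5 without. This order depended on the search: with a run anywhere within 10 bases of the start, it was -0.26 for the 10 5'TOP-type members with it and -0.42 for the 3 without, and over all members -0.14 for 20 with it and -0.11 for 14 without. EIF2S3 and EIF4A2, whose windows hold the run and which are not 5'TOP-type by the rule, were close to 0 at -0.03 and -0.04. EEF1G and EIF3I, whose windows do not hold it at the start, were at -0.42 each. Lists sorted by the run and by name therefore overlapped without being interchangeable.

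The cytosolic ribosomal protein genes, the classic carriers of the 5'TOP motif, stood beside the factors as follows. All 79 tested had lower estimates (median log2 fold change -0.42), and edgeR called 0, limma-voom 0 and DESeq2 18, all lower, beside 1.14% of all genes for DESeq2. At an unadjusted p under 0.05, 69 of 79 were lower in edgeR's test, beside 6.71% of all genes and 193 of the 577 genes above 8 log2 CPM. All knockdown libraries lay below all control libraries for 71 of 79, beside 10.8% of all genes and 210 of those 577. The median was -0.22 with the abundance trend removed and -0.22 on TPM. By library their median was -0.37, -0.56 and -0.40 in knockdown libraries 1 to 3, against -0.39, -0.53 and -0.56 for the elongation factors. The 15 5'TOP-type factors outside elongation had a median of -0.15.

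Abundance moved with the same division. The 5'TOP-type members had a median of 8.35 log2 CPM and the other factors 7.09. Across the 42 genes Spearman's rho between log2 fold change and log2 CPM was -0.43, as a description of genes that share libraries. Among the 577 genes of the table above 8 log2 CPM, 460 had lower estimates and the median was -0.17. Of these 577 genes, 193 were lower by edgeR at an unadjusted p under 0.05, and 210 were lower without overlap. The 13 5'TOP-type members above 8 log2 CPM had a median of -0.36, and the 7 other factors above it had -0.04. At an unadjusted p under 0.05, 7 of these 13 and 0 of these 7 were lower by edgeR. When the trend of fold change with abundance was removed, the 5'TOP-type median was -0.09 with 13 of 20 lower, the other factors were at 0.07, and EEF1A1 was at -0.04.

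The factors made up a smaller share of all gene counts after knockdown. The 42 genes took 2.71%, 2.77% and 2.90% of counts in control libraries 1 to 3 and 2.51%, 2.46% and 2.36% in knockdown libraries 1 to 3. The difference lay in the 5'TOP-type genes, at 2.26%, 2.31% and 2.44% in the control and 2.05%, 1.96% and 1.88% after knockdown. The other factors took 0.457%, 0.454% and 0.463% in the control and 0.457%, 0.491% and 0.473% after knockdown. The groups did not overlap for the 5'TOP-type genes and overlapped for the other factors. In CPM, which unlike these shares of raw counts carry the TMM factors, EEF1A1 alone made up much of the 5'TOP-type sum. On average it gave 11684 of 24408 CPM in the control and 8522 of 18882 CPM after knockdown.

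Between genes, levels were compared in TPM, which take transcript length into account and were deposited by the authors. In the control libraries EEF1A1 stood first at 9298 ± 534 TPM (SD, n = 3), followed by EEF1G at 2468 ± 358, EEF2 at 2212 ± 163 and PABPC1 at 1666 ± 428 TPM. EEF1G and EEF2 did not differ beyond their spread. EEF1D at 749 ± 161, EIF5A at 646 ± 50.3 and EEF1B2 at 555 ± 24.5 TPM came next, where EEF1D and EIF5A again lay within their spread. EIF2B3 at 25.3, EIF5B at 24.1 and EIF4E at 11.9 TPM were at the bottom, so the cap-binding protein gene had the lowest level per length of all 42.

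The deposited TPM did not follow the deposited counts in a fixed ratio across libraries. The TPM to CPM ratio of EIF2S1 ranged from 0.346 to 0.834 over the 6 libraries, that of EEF1D from 1.72 to 2.85, and for 10 of 42 members it varied by over 1.5 times. On log2(TPM + 1) the 5'TOP-type median was -0.01, that of the other factors 0.19 and that of all genes 0.21. The order of the lists was thus kept on the TPM scale, but the 5'TOP-type members as a list were not below 0. The elongation factors had a median of -0.32 on that scale.

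Reads of several members can also fall on near-identical copies. EIF3C and EIF3CL are near-identical genes, and both had a log2 fold change of -0.06. The EEF1A1 pseudogene EEF1A1P5 took 1168, 1442 and 1266 CPM in the control and 1030.3, 707 and 892 CPM after knockdown, a log2 fold change of -0.56, and EEF1A1P6 had -0.78. How reads were divided between EEF1A1 and its pseudogenes is not known, so the level of EEF1A1 is uncertain. EEF1A2, the tissue-restricted paralog, stood at 1066, 1193 and 1156 CPM in the control and 1092, 701 and 986 CPM after knockdown, with overlapping groups (adjusted p 0.399 by edgeR). Coordinates of 38 of 42 members overlap another gene of the table, EIF4A1 with the readthrough gene SENP3-EIF4A1 among them.

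Genes that regulate the factors went in both directions. Of 47 listed regulators and accessory factors, all tested, 28 had a lower estimate and the median log2 fold change was -0.03. By edgeR 1 rose and 0 fell, and at an unadjusted p under 0.05 there were 5 higher and 4 lower, beside 9.77% and 6.71% of all genes tested. The gene that rose was PPP1R15A (GADD34), which guides a phosphatase to eIF2 alpha and so reverses the block on eIF2B. It had 112, 109 and 103 CPM in the control and 205, 174 and 199 CPM after knockdown, without overlap, a log2 fold change of 0.83 (SE 0.12, adjusted p 0.0174 by edgeR). Leaving out any library other than knockdown library 2 ended this call, with adjusted p between 0.0671 and 0.108.

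PPP1R15B, the constitutive paralog of PPP1R15A, had 123, 118 and 120.5 CPM in the control and 141, 193 and 158 CPM after knockdown. Its log2 fold change was 0.44 (adjusted p 0.186 by edgeR). EIF2D, which can deliver tRNA without eIF2, had 106, 111 and 109 CPM in the control and 92.9, 80.0 and 80.4 CPM after knockdown, a log2 fold change of -0.36 (adjusted p 0.194 by edgeR). For both genes the groups did not overlap. TPT1, a classic 5'TOP gene, had 858, 924 and 909 CPM in the control and 709, 763 and 732 CPM after knockdown, a log2 fold change of -0.29 (adjusted p 0.202 by edgeR). MKNK2, a kinase of eIF4E, had a log2 fold change of 0.64 and overlapping groups (adjusted p 0.239 by edgeR). The 4 eIF2 kinase genes EIF2AK1 to EIF2AK4 had log2 fold changes between -0.06 and 0.50, and none passed the test.

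The 5'TOP-type median stayed below the median of all genes under each scaling tried. Scaling by library size alone moved the median of all genes to 0.17, the 5'TOP-type median to -0.19 and that of the other factors to 0.09, and the distance of the 5'TOP-type median from that of all genes was -0.36, as under TMM scaling. It was -0.28 with GC and length trends removed, -0.22 on TPM and -0.10 with the abundance trend removed. EEF1A1, EEF1B2, EEF1D, EEF1G, EIF3G, EIF3I, EIF3K, EIF3L and PABPC1 kept a lower estimate under all 17 other settings, as did EIF1, EIF2B5 and EIF6, and EIF1B and EIF4G3 kept a higher one. The other 28 members turned in direction under at least 1 setting.

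**Figure D5:**
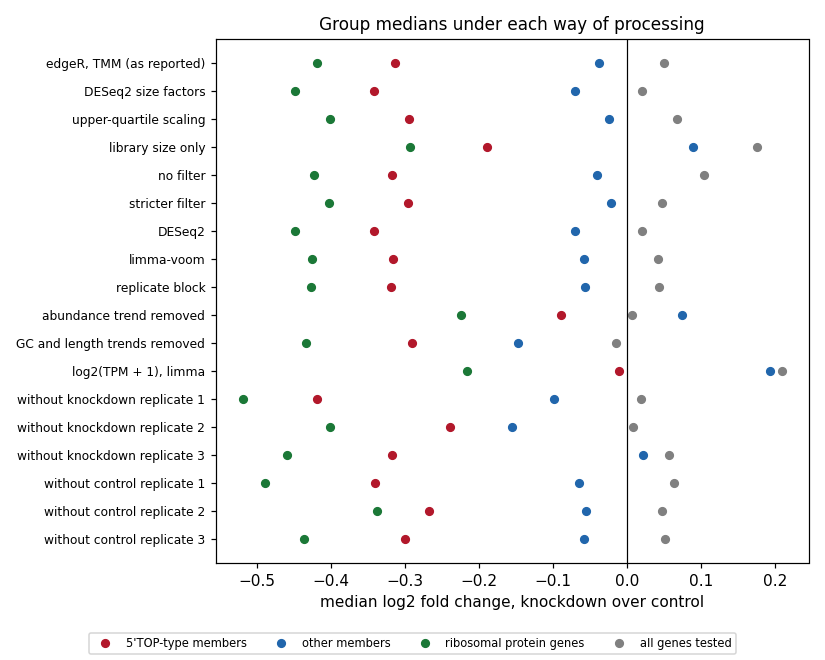
Median log2 fold change of the 20 5'TOP-type members, the 22 other factors, the ribosomal protein genes and all genes tested under each processing setting. Settings include each library left out in turn. The 5'TOP-type median lies below those of the other factors and of all genes in each setting, from -0.42 to -0.01. It comes closest to the other factors without knockdown library 2.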

How the data were processed

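RNA of 6 PC9 libraries, 3 per group as the labels assign them, was sequenced on an Illumina instrument, and the authors passed reads through quality control, mapped them and counted them per gene, per the labels' protocols. The deposited counts are whole numbers per gene and library, without normalization. TPM were deposited by the authors and were used for levels between genes and for 1 alternative, as log2(TPM + 1). For the aligner, counting program and strand setting, nothing is given in the sources used here. The submitters' processing notes give hg19 as the build, yet 55964 of 57836 genes (96.8%), 40 of the 42 members among them, have the coordinates of GENCODE 29 on GRCh38. Printed gene coordinates are those of the table, and start windows come from RefSeq on GRCh38.p14.

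After filterByExpr (minimum 10 counts) and TMM scaling, 19040 genes were tested by edgeR 4.0.16 in R 4.3.3 with its quasi-likelihood test, and p-values were adjusted by Benjamini and Hochberg's method at a threshold of 0.05. The biological coefficient of variation was 22.9%. The scripts were tested on simulated data. Pairs of libraries within a group differed beyond sampling noise (chi-square over its degrees of freedom 33.6 to 85.3), so none were merged. GENCODE 29 supplied GC content and length, each of the longest transcript of a gene. Plots used matplotlib 3.10.9 and Python 3.11.15.

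The members, the lists and the naming rule were chosen with earlier results of these data known. The rule took, in each role group, up to 5 members whose libraries did not overlap between groups, by lowest unadjusted p, plus the lowest and the highest estimate, paralog pairs, regulators past the test and the 4 next by p. Alternatives were other scalings and filters, DESeq2 1.42.0, limma 3.58.1 with voom, TPM, removal of the abundance trend, the replicate number as a block and leaving out each library. Removal of GC and length trends was added after the data were seen.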

Additional observations from a re-analysis of the deposited data

How the results depend on the processing

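Over 17 other settings no member passed the test except 3 with DESeq2 and 5 with GC and length trends removed. Genes past the test in all numbered 223 (209 higher, 14 lower) as reported, 147 without a filter, 82 with a stricter filter, 701 with DESeq2 (483 higher, 218 lower), 131 with the abundance trend removed, 648 with GC and length trends removed (390 higher, 258 lower), 397 on TPM and 64 to 114 with 1 library left out. Medians of the 5'TOP-type and the other factors were -0.19 and 0.088 on library size alone, -0.090 and 0.073 with the abundance trend removed, -0.29 and -0.15 with GC and length trends removed, and -0.011 and 0.19 on TPM. With 1 library left out they ranged from -0.42 to -0.24 and from -0.16 to 0.022, and the gap between them from -0.34 to -0.083, the last without knockdown library 2. The elongation median was -0.33 on library size, -0.14 with the abundance trend removed, -0.32 on TPM and -0.59 to -0.44 with 1 library left out. Regulators past the test numbered 2 with GC and length trends removed (PPP1R15A and PPP1R15B) and 0 to 1 with 1 library left out. The cause of these differences was not tested.

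Correlations of same-numbered libraries' deviations were 0.01, -0.10 and -0.03, so the replicate numbers do not pair the libraries. With the replicate number as a block, 34 genes, 0 members and 0 regulators passed, PPP1R15A being at an edgeR adjusted p of 0.102. In that setting EIF3J turned in direction, to a log2 fold change of 0.0028.

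Some estimates turned in direction, given here as log2 fold changes. With DESeq2 and with its size factors EIF2S1 was at -0.0066. EIF3J was at 0.0021 with limma-voom, 0.014 with the stricter filter and 0.013 with upper-quartile scaling. With GC and length trends removed, EIF1AX was at -0.16, EIF2S1 -0.13, EIF3A -0.077, EIF3E -0.079, EIF4E -0.23, EIF5 -0.00053 and EIF5B -0.025. With the abundance trend removed, EIF2S3 was at 0.12, EIF3C 0.029, EIF3H 0.021, EIF3J 0.017, EIF4A2 0.088, EIF4B 0.083, EIF4G1 0.17, EIF4G2 0.041, EIF4H 0.028 and EEF2 0.077. On library size alone, EIF2S3 was at 0.092, EIF2B4 0.030, EIF3C 0.064, EIF3H 0.011, EIF3J 0.12, EIF3M 0.019, EIF4A2 0.084, EIF4B 0.014 and EIF4G1 0.094. On TPM, EIF2S3 was at 0.19, EIF2B1 0.098, EIF2B2 0.20, EIF2B3 0.068, EIF2B4 0.15, EIF3B 0.14, EIF3C 0.14, EIF3D 0.036, EIF3F 0.030, EIF3H 0.46, EIF3J 0.039, EIF3M 0.20, EIF4A2 0.19, EIF4B 0.15, EIF4G1 0.32, EIF4G2 0.082, EIF4H 0.071 and EIF5A 0.024. With 1 library left out, ranges were -0.25 to 0.22 for EIF1AX, -0.17 to 0.086 for EIF2S1, -0.074 to 0.15 for EIF2S2, -0.21 to 0.023 for EIF2S3, -0.042 to 0.12 for EIF3A, -0.17 to 0.013 for EIF3C, -0.18 to 0.15 for EIF3E, -0.13 to 0.070 for EIF3J, -0.089 to 0.27 for EIF4A1, -0.25 to 0.031 for EIF4A2, -0.16 to 0.15 for EIF4E, -0.18 to 0.064 for EIF4G1 and -0.012 to 0.31 for EIF5B.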
